A study of Mus musculus with 12 samples.

Results

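Collagens are the trimeric structural proteins of the extracellular matrix, and their chains are encoded by genes named Col, a type number, the letter a and a chain number. The probes of the arrays whose accession mapped to such a symbol were taken: 63 probes for 43 genes, of 55681 probes in all, 27235 of which could be named, for 20660 genes. Of these, 33 collagen genes (47 probes) passed the filter on dim probes (well above background on at least 3 of 12 arrays) and were tested among 29795 genes or unnamed features. Membership follows from the symbol and not from a measured value, although the collagens were taken up as a set with earlier results of these data known. Col12a1 and Col21a1 had no matched probe.

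The study measured RNA of the heart apex on 12 single-colour arrays, 3 for each of 4 lines with changes at Nkx2-5, which encodes a cardiac transcription factor with a homeobox. The lines are Nkx2-5 control/+, a knock-in that keeps the isoleucine that the next 2 lines replace, Nkx2-5 I183M/+ with methionine in its place, Nkx2-5 I183P/+ with proline, and Nkx2-5 delta/+ with a deletion of the gene. Every animal was an adult C57BL/6J male of 15 weeks, and every line carries a + allele beside the altered one, so no line lacks Nkx2-5 altogether. The labels do not say whether replicates came from separate animals, so p-values measure the spread between these samples, which may be technical.

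Fibrillar collagens (types I, III and V in heart) form the tensile fibrils between muscle cells and are made mainly by cardiac fibroblasts. Type IV chains form the sheet of the basement membrane around muscle cells and vessels, type VI forms beaded filaments next to it, and the FACIT collagens sit on the surface of fibrils. The chains are folded and hydroxylated in the endoplasmic reticulum, cut after secretion, and crosslinked by lysyl oxidases, and their synthesis rises in fibrosis, often under TGF-beta.

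Levels are log2 processed intensities relative to the 75th percentile of the same array, and folds are differences of group means on that scale. A level describes 1 probe and cannot be set against that of another probe. One array, control replicate 1, differed from the remaining 11: 99.1% of its spots were well above background, against 51.2% to 75.2% elsewhere. On it, bright probes read low and dim probes read high relative to the percentile. Among 14 collagen genes whose median on the other arrays was above 0, 11 were lowest on control replicate 1 (93.4% of all such features), and of the 19 others 15 were highest there (70.8%). Most folds against control are therefore also given without that array, and detection is given over the other 11. Control, I183M and I183P replicates 1 and 2 lay on slide 1. I183P replicate 3 and the 3 delta arrays lay on slide 2, so delta never shared a slide with control or I183M.

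Promoters of collagen chains with different roles are shown for some of the genes that the measurements below turn on, from the RefSeq promoter table of build GRCm38.p6. That table held 38 windows of 300 bases for 35 of the 43 genes, and none for Col22a1 or Col1a1. Each stretch ends at the base before the annotated start, except that the Col4a1 and Col4a2 pieces are 30 bases within the window. Capitals mark 4 searched motifs on either strand: CCAAT (the CCAAT box), GGGCGG (the GC box), TATAAA (the TATA box) and TNAAGTG (the core of the Nkx2-5 binding motif). No 2 of these matches overlapped in the stretches shown.
Col1a2, chr6:4505368-4505617, + strand: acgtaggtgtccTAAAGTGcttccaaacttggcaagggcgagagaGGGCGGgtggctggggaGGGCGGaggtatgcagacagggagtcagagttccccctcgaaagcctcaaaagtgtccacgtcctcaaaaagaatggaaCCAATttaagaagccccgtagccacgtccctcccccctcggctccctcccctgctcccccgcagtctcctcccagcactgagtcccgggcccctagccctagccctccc
Col3a1, chr1:45311288-45311537, + strand: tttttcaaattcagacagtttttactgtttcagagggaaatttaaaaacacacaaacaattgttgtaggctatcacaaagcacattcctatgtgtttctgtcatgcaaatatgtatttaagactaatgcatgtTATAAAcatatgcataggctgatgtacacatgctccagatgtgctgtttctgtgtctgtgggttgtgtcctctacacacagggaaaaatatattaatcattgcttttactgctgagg
Col4a6, chrX:141474077-141474326, - strand: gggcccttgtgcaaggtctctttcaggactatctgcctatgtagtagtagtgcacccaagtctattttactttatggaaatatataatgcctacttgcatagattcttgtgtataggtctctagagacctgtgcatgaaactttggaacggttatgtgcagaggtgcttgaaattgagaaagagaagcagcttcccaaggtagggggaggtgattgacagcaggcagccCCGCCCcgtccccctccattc
Col4a2, chr8:11312753-11312782, + strand: cgcgCCGCCCgaggagctccCCAATttgtt
Col4a1, chr8:11312952-11312981, - strand: cttgcccgggATTGGcgagccaaggggctc
Col1a2 and Col3a1 encode fibril chains and share none of the 4 motifs in these stretches. Col1a2 holds a CCAAT, 2 GGGCGG and 1 TNAAGTG match, the last 238 bases before the start, whereas Col3a1 holds a single TATAAA. Col4a1 and Col4a2 are transcribed in opposite directions, and their 300-base windows overlap by 78 bases. By the annotated starts their first transcribed bases overlap, so each piece shown also lies downstream of the start of the other gene. Col4a5 and Col4a6 are a second pair in opposite directions, with starts 1343 bases apart and no such overlap. Over the 38 collagen windows, TNAAGTG occurred in 8 (21.1%, against 11.5% of 32851 windows), GGGCGG in 60.5% (35.7%), CCAAT in 34.2% (37.4%) and TATAAA in 13.2% (13.6%). These are matches of letters and not sites of binding.

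Outside control replicate 1, 26 of the 43 collagen genes had a probe well above background on all 11 arrays. A further 6 were above on 6 to 10 arrays, 4 on 1 or 2, and 7 on none. By probe, 35 of 63 (55.6%) were above on all 11 arrays and 12 (19.0%) on none, and over all probes of the arrays these shares were 45.1% and 17.2%. On control replicate 1 all 63 collagen probes were above background, so a reading there does not separate the chains. The number of collagen probes above background was 49 on I183M replicate 1 and 48 on delta replicate 2, and 38 to 42 on the remaining arrays other than control replicate 1.

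**Figure D1:**
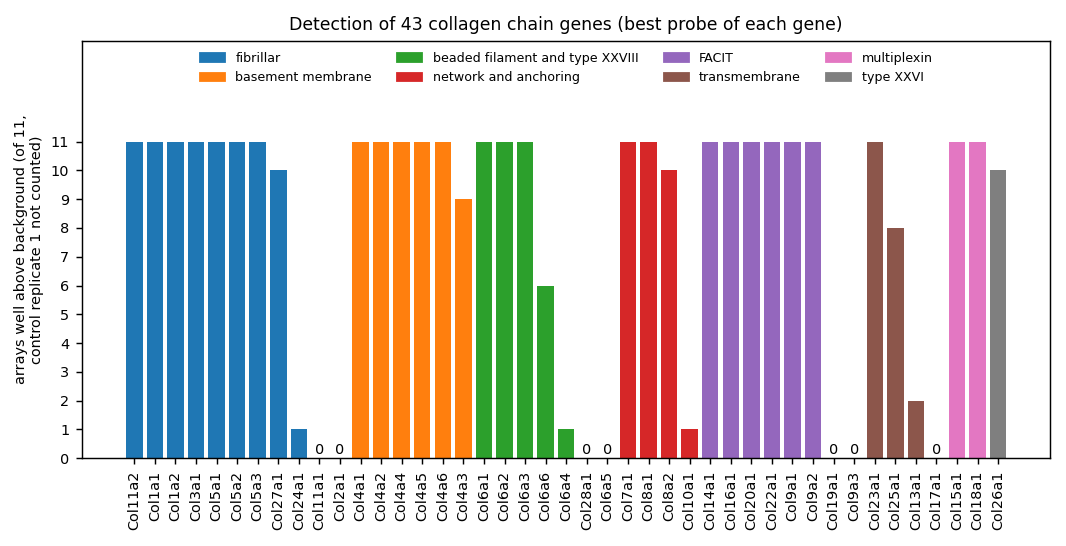
Bars give, for the best probe of each of 43 collagen chain genes, the number of the 11 arrays other than control replicate 1 on which it was well above background, coloured by structural class. 26 bars reach 11, and 7 genes stand at 0.

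Among the fibrillar chains, Col1a1, Col1a2, Col3a1, Col5a1, Col5a2, Col5a3 and Col11a2 were above background on all 11 arrays, which is 7 of 11 genes. Col27a1 was above on 10 and Col24a1 on 1. Col2a1, the main fibril chain of cartilage, and its partner Col11a1 were above on none of the 11. Of the type IV chains, Col4a1, Col4a2, Col4a4, Col4a5 and Col4a6 were above on all 11, and Col4a3 on 9. Type VI was split: Col6a1, Col6a2 and Col6a3, whose products form the common trimer, were above on all 11. Col6a6 was above on 6, Col6a4 on 1, and Col6a5 and the related Col28a1 on none.

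The FACIT chains Col9a1, Col9a2, Col14a1, Col16a1, Col20a1 and Col22a1 were above on all 11 arrays, and Col9a3 and Col19a1 on none. Col15a1 and Col18a1, the multiplexins of basement membrane zones, were above on all 11. Of the network and anchoring chains, Col7a1 and Col8a1 were above on 11, Col8a2 on 10, and Col10a1, a chain of hypertrophic cartilage, on 1. Of the transmembrane chains, Col23a1 was above on 11, Col25a1 on 8, Col13a1 on 2 and Col17a1, the hemidesmosome collagen of skin, on none. Col26a1 was above on 10. Col13a1 entered the test through control replicate 1, and with the 10 genes that were not tested (Col2a1, Col6a4, Col6a5, Col9a3, Col10a1, Col11a1, Col17a1, Col19a1, Col24a1 and Col28a1) it has no fold that rests on detection in every group. Its I183P arrays were not well above background, and as linear ratios control was at least 3.70-fold and I183M at least 3.14-fold higher than I183P. Each bound rests on 1 array. Control replicate 1 read -0.31 against -5.26 and -5.33 on the other 2 control arrays, neither of which was well above background. The 1.17-fold left without it is therefore not a bound. I183M replicate 1 read -2.20 against -5.08 and -4.32, and 1 of the 3 I183M arrays was well above background. The 1.77-fold left without replicate 1 is not taken as a bound either. In delta 1 of 3 arrays was well above background as well, and without the highest delta array no fold over I183P remained.

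The labelled tissue was heart, and its defining markers were found: all 10 ventricular muscle markers and all 14 fibroblast markers were above background on the 11 arrays. Of 14 markers of cartilage, tendon and bone, 8 were tested and 4 were above on all 11, and Matn1, Matn3, Tnmd, Ibsp, Bglap and Sp7 were not tested. In a bulk sample, fewer cells of a type and less RNA per cell cannot be told apart.

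No collagen gene passed in any of the 6 comparisons (0 of 33 in each, limma with Benjamini-Hochberg adjustment over 29795 features, threshold 0.05). Over all features, 0% passed in I183M versus control, 0.00336% in I183P versus control, 0.0738% in delta versus control, and 0% in each of the 3 direct comparisons. At an unadjusted p under 0.05, 1, 1 and 2 collagen genes stood in the comparisons of I183M, I183P and delta with control, and 0 in the direct ones. Over all features these shares were 1.46%, 5.18%, 7.35%, and 1.28%, 3.51% and 2.78% for I183P versus I183M, delta versus I183M and delta versus I183P. Without control replicate 1, 0 of 33 passed in each comparison, where 0%, 0.0168%, 0.171%, 0%, 0.0436% and 0.0235% of all features did in the same order. With normexp and quantile normalization 0 of 33 passed as well, and of all features 0.00671%, 0.0101%, 0.0906%, 0%, 0.0168% and 0.0168%. The collagen genes at an unadjusted p under 0.05 on that scale were 1, 5, 4, 0, 1 and 4, against 3.12%, 8.1%, 9.77%, 2.78%, 6.42% and 4.92% of all features. The median fold of the 33 genes was 0.12, 0.18 and -0.06 against control for I183M, I183P and delta, where all features had 0.11, -0.03 and 0.04. It was 0.04 for I183P versus I183M, and -0.22 for delta against either substitution line (all features -0.09, -0.02 and 0.14). Without delta replicate 3 the last 2 collagen medians were -0.03 and -0.05, and that of delta versus control was 0.12. Without control replicate 1 the collagen medians against control were 0.14, 0.087 and -0.02, where all features had 0.09, 0.01 and 0.16. Subtracting the array median in place of the percentile moved the median of all features to 0.33, 0.79 and 0.44 against control, and that of the collagens to 0.34, 1.00 and 0.33. No fold of a named collagen changed sign under that scaling.

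**Figure D2:**
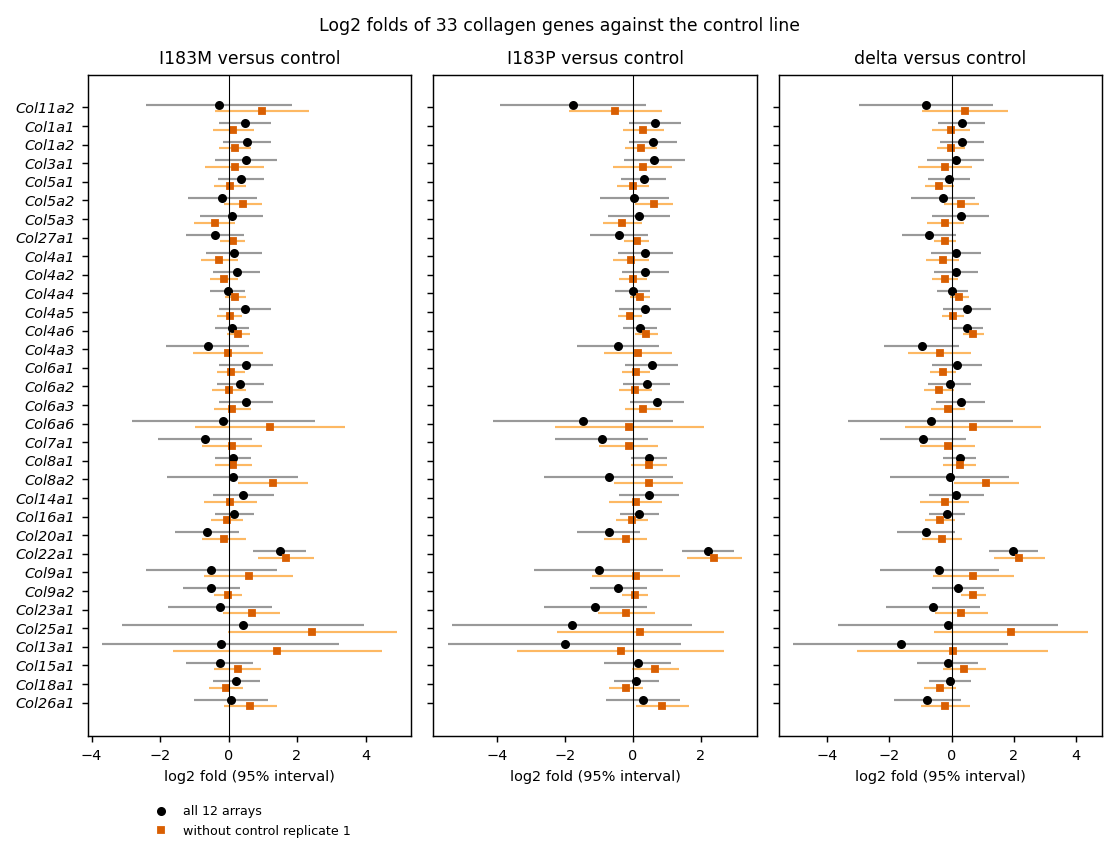
Log2 folds of the 33 tested collagen genes against the control line, 1 panel for each mutant line, with 95% intervals from limma. Black points use all 12 arrays and orange squares leave out control replicate 1. Col22a1 lies to the right of 0 in the 3 panels with both sets of arrays, and none of the 33 genes passed after adjustment.

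Col22a1 (NM_027174) encodes a FACIT collagen known from tissue junctions such as the myotendinous junction, and it was the one gene of the 33 whose 9 mutant arrays all lay above the 3 control arrays. Its probe, above background on all 12 arrays, read -2.94, -3.82 and -3.21 in control and -1.77, -1.90 and -1.84 in I183M. It read -1.58, -1.42 and -0.32 in I183P and -1.17, -1.55 and -1.29 in delta. The control arrays were the 3 lowest, the lines did not overlap with control, and I183P replicate 3, the one of its line on slide 2, was the highest of the 12. Over all features, 2.36%, 7.55% and 10.5% lay wholly above control in I183M, I183P and delta. The share of all features above control in the 3 lines at once was not counted. The folds were 1.49 (SE 0.35, 95% interval 0.71 to 2.27) for I183M, 2.22 (1.44 to 3.00) for I183P and 1.98 (1.21 to 2.76) for delta. None passed after adjustment over all features (limma adjusted p 0.879, 0.214 and 0.154).

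Without control replicate 1 these folds of Col22a1 were 1.68, 2.41 and 2.17 (limma adjusted p 0.635, 0.133 and 0.0664). The arrays were separated in the same way with normexp and quantile normalization, where the folds were 1.07, 1.61 and 1.38 (adjusted p 0.819, 0.239 and 0.137). The fit without I183P replicate 3 is the one alternative in which a collagen passed: the fold of Col22a1 in delta versus control was 1.98 with adjusted p 0.0436, and its adjusted p ran from 0.0436 to 1 over the alternatives. With the slide as a block that fold was 0.80, since control and delta are linked there through I183P alone, and with normexp and slide together it was 0.56. The part of the slide in the delta fold was not tested. Between mutant lines, the folds of Col22a1 were 0.73 for I183P versus I183M (adjusted p 1) and 0.50 for delta versus I183M (adjusted p 1), with no overlap of the arrays in either. With the slide as a block they were 0.34 and -0.69, and 0.34 is also the value of the former without I183P replicate 3.

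For the fibril-forming chains of types I and III, the low readings were on 2 arrays, control replicate 1 and delta replicate 3. Col1a1 (NM_007742), a chain of type I collagen, read 2.21, 3.35 and 3.13 in control and 3.27, 3.36 and 3.52 in I183M. It read 3.61, 3.43 and 3.63 in I183P and 3.76, 3.21 and 2.70 in delta. The I183P arrays lay above all control arrays, and the delta arrays ran from below to above those of I183M and I183P. The folds against control were 0.49, 0.66 and 0.33 for I183M, I183P and delta (SE 0.34; limma adjusted p 0.879, 0.563 and 0.795), and without control replicate 1 they were 0.14, 0.31 and -0.02.

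Col1a2 (NM_007743), the other chain of type I, read 4.16, 5.36 and 5.07 in control, 5.17, 5.50 and 5.50 in I183M, 5.51, 5.44 and 5.41 in I183P, and 5.53, 5.20 and 4.85 in delta. I183P again lay above control without overlap, while delta and I183M overlapped with it. Its folds in I183M, I183P and delta were 0.53, 0.59 and 0.33 (SE 0.31), with limma adjusted p of 0.879, 0.563 and 0.764, and 0.18, 0.24 and -0.02 without control replicate 1.

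Col3a1 (NM_009930), the chain of type III collagen that shares fibrils with type I, read 2.88, 4.02 and 3.75 in control, 3.92, 4.07 and 4.18 in I183M, 4.23, 4.12 and 4.17 in I183P, and 4.37, 3.85 and 2.80 in delta. Delta thus held both the highest and the lowest of the 12 readings. The folds were 0.51, 0.63 and 0.13 (SE 0.40; limma adjusted p 0.879, 0.563 and 0.926), and without control replicate 1 they were 0.18, 0.29 and -0.21. Without delta replicate 3 the delta fold was 0.57.

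**Figure D3:**
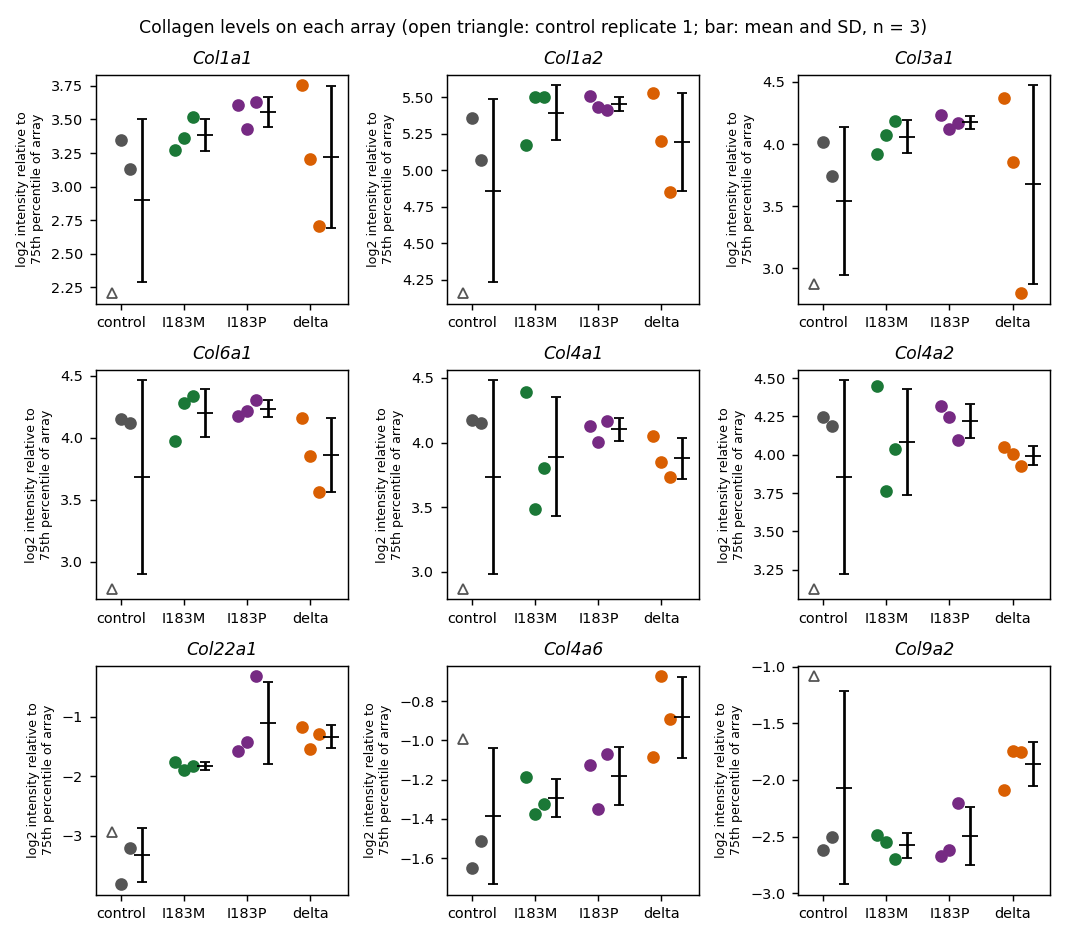
Levels of 9 collagen genes on each array, as log2 intensity relative to the 75th percentile of the array, by line, with the mean and SD of 3 arrays beside the points. The open triangle is control replicate 1, which is the lowest control array for the genes of the upper 2 lines of panels, and the 9 mutant arrays of Col22a1 lie above its 3 control arrays.

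Col6a1 (NM_009933), a chain of the type VI trimer, read 2.78, 4.15 and 4.12 in control, 3.98, 4.28 and 4.34 in I183M, 4.17, 4.22 and 4.31 in I183P, and 4.16, 3.85 and 3.56 in delta. The I183P arrays lay above the control and the delta arrays, and I183M overlapped with both. The folds against control were 0.52, 0.55 and 0.18 (SE 0.35; limma adjusted p 0.879, 0.563 and 0.889), and without control replicate 1 they were 0.067, 0.10 and -0.27. The fold of delta versus I183P was -0.37 (adjusted p 1). Col6a3, the large chain of the same trimer, had no overlap between I183P (2.15, 2.27 and 2.66) and control (0.84, 2.10 and 2.00), with a fold of 0.71 (SE 0.35, adjusted p 0.563) that was 0.31 without control replicate 1.

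Col4a1 and Col4a2 encode the ubiquitous type IV trimer and are the divergent pair whose promoter pieces stand above. Col4a1 read 2.87, 4.18 and 4.15 in control, 4.39, 3.48 and 3.80 in I183M, 4.13, 4.005 and 4.17 in I183P, and 4.05, 3.85 and 3.73 in delta. Col4a2 read 3.12, 4.25 and 4.19 in control, 4.45, 3.76 and 4.04 in I183M, 4.32, 4.25 and 4.10 in I183P, and 4.05, 4.003 and 3.93 in delta. Both probes had their highest reading on I183M replicate 1 and, control replicate 1 apart, their lowest on I183M replicate 2. The range within I183M was wider than that of I183P and delta together for both probes, and Col5a3 was also lowest of the 11 arrays on I183M replicate 2 (1.61).

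The folds of Col4a1 against control were 0.16, 0.37 and 0.15 (SE 0.36) and of Col4a2 0.23, 0.37 and 0.14 (SE 0.31), with limma adjusted p between 0.563 and 0.966. Without control replicate 1 the delta arrays of both lay below control replicates 2 and 3, at folds of -0.29 and -0.22 (adjusted p 0.593 for both), as did 11.7% of all features. On the normexp and quantile scale they lay below all 3 control arrays, at -0.30 and -0.27 (adjusted p 0.643 and 0.636), as did 4.92% of all features. Without control replicate 1 the folds in I183M and I183P were -0.27 and -0.063 for Col4a1 and -0.13 and 0.0024 for Col4a2. With normexp and quantile normalization these were -0.26 and -0.051, and -0.17 and -0.019. The folds of this pair against control thus turned in sign with that array and with the normalization, except that of Col4a2 in I183P, which kept its sign without the array.

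Col4a6 encodes a chain of a type IV trimer of more restricted basement membranes, such as those of smooth muscle. It read -0.99, -1.65 and -1.51 in control, -1.19, -1.37 and -1.32 in I183M, -1.12, -1.35 and -1.07 in I183P, and -1.09, -0.67 and -0.89 in delta. The delta arrays lay above all I183M arrays, and above control replicates 2 and 3 but not control replicate 1. The fold of delta was 0.50 against control (SE 0.22, 95% interval 0.00 to 1.00, limma adjusted p 0.675) and 0.41 against I183M (adjusted p 1). Leaving out control replicate 1 gave 0.70 for delta against control (SE 0.15, adjusted p 0.103). On the normexp and quantile scale the same fold was 0.73 (adjusted p 0.216), and all 9 mutant arrays lay above the 3 control arrays. Of all features, 3.7%, 10.1% and 10.3% lay wholly above control on that scale in I183M, I183P and delta, and 22.4% did in delta without control replicate 1. A share for the 3 lines at once was not counted. A second Col4a6 probe, also above background on all 11 arrays, had folds of 0.41, -0.25 and -0.01 against control where the first had 0.09, 0.20 and 0.50. These folds include control replicate 1, on which the second probe read -2.17, against -2.81 and -2.96 on control replicates 2 and 3. It read -2.31, -2.51 and -3.15 in delta. In delta versus I183M, which involves no control array, the first probe had 0.41 and the second -0.42, so the probes disagree there.

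Col9a2, a chain of the FACIT type IX collagen best known from cartilage, read -1.08, -2.61 and -2.50 in control, -2.49, -2.54 and -2.70 in I183M, -2.67, -2.62 and -2.20 in I183P, and -2.09, -1.74 and -1.75 in delta. The delta arrays lay above all 6 arrays of the substitution lines and above control replicates 2 and 3. The folds of delta were 0.72 against I183M and 0.64 against I183P (SE 0.37; limma adjusted p 1 in both), and 0.72 (SE 0.15, adjusted p 0.163) and 0.64 (adjusted p 0.304) with control replicate 1 left out of the shared fit. Their lowest values over the alternatives were 0.28 with the slide as a block for delta versus I183M, and 0.16 with normexp and slide together for delta versus I183P. Within slide 2 delta was 0.34 above I183P replicate 3, which was the highest of its line.

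In I183P versus control, 6 collagens lay wholly higher (Col1a1, Col1a2, Col3a1, Col6a1, Col6a3 and Col22a1) and 1 wholly lower (Col11a2). Over all features 7.55% lay wholly higher and 5.23% wholly lower. In I183M versus control the counts were 1 (Col22a1) and 0, against 2.36% and 1.37%, and in delta versus control 1 (Col22a1) and 1 (Col27a1), against 10.5% and 3.1%. Of these genes of I183P versus control, Col6a3 and Col22a1 were also separated with normexp and quantile normalization, and the groups overlapped for Col1a1, Col1a2, Col3a1, Col6a1 and Col11a2. Without control replicate 1, 11 collagens lay wholly higher and 0 wholly lower in I183M, 10 and 1 in I183P, and 5 and 3 in delta. For delta 22.4% and 11.7% of all features did. For I183M and I183P no such share is given, so their counts cannot be set against all features.

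Col11a2, a minor fibril chain, read 0.42, -3.10 and -3.58 in control, -1.67, -2.60 and -2.83 in I183M, -3.69, -3.84 and -4.04 in I183P, and -3.90, -1.65 and -3.16 in delta. The I183P arrays were below every control and I183M array, and the arrays with the most probes above background (control replicate 1, I183M replicate 1 and delta replicate 2) read highest. The folds of I183P were -1.77 against control (SE 0.96, limma adjusted p 0.563; -0.52 without control replicate 1) and -1.49 against I183M (adjusted p 1; -0.51 with normexp and quantile normalization). The part of the background of those 3 arrays in these folds was not tested. Col8a1, a short-chain network collagen of vessel walls, read -1.28, -1.05 and -1.55 in control and -0.85, -1.09 and -0.50 in I183P. These groups overlapped, with a fold of 0.48 (SE 0.24, adjusted p 0.563).

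Col27a1, a fibrillar chain of cartilage, read -2.37, -3.89 and -3.93 in control, -3.83, -3.75 and -3.81 in I183M, -3.90, -3.51 and -4.00 in I183P, and -4.02, -4.03 and -4.32 in delta. The 3 delta arrays were the lowest of the 12, just below I183P replicate 3. The fold of delta was -0.73 against control (SE 0.38, limma adjusted p 0.704), -0.21 without control replicate 1 and -0.02 with normexp and quantile normalization.

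Between the mutant lines, I183P versus I183M had 1 collagen wholly higher (Col22a1) and 4 wholly lower (Col8a2, Col11a2, Col23a1 and Col25a1), where 5.79% and 18.6% of all features were. The transmembrane chains Col25a1 (fold -2.21) and Col23a1 (-0.86) had limma adjusted p of 1, and with normexp and quantile normalization their folds were -0.66 and -0.14. The separation of Col23a1 is that of its main probe. Another of its probes, which also cleared background on each of the 11 arrays, gave -0.46 for I183P versus I183M. There the groups overlapped, with -3.34 on I183P replicate 2 against -3.48 on I183M replicate 2. The remaining Col23a1 probe gave -3.15 but cleared background on only 4 of the 11. Col25a1 read -1.91, -3.66 and -3.19 in I183M and -6.27, -4.28 and -4.84 in I183P and was above background on 8 of the 11 arrays but on 1 of 3 in I183P, so its fold is set against a line that was mostly not well above background.

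Delta versus I183M had 3 wholly higher (Col4a6, Col9a2 and Col22a1) and 2 wholly lower (Col26a1 and Col27a1), where 11% and 6.28% of all features were. Delta versus I183P had 1 wholly higher (Col9a2) and 4 wholly lower (Col4a2, Col6a1, Col26a1 and Col27a1), where 13.4% and 6.07% were. Col26a1 read -3.00, -3.00 and -3.05 in I183M, -3.23, -2.57 and -2.55 in I183P and -3.47, -3.51 and -4.58 in delta, with delta folds of -0.84 and -1.07 (limma adjusted p 1 in both). Delta replicate 3 was the lowest array and 0.91 below the next of the 11. With normexp and quantile normalization the 2 folds were -0.14 and -0.43, and the groups overlapped.

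Delta replicate 3 was low for more than the chains named so far, a pattern chosen after the values were seen. It was the lowest of the 11 arrays for 13 of 33 collagen genes (39.4%), and for 13.6% of all features. The 13 were Col1a1, Col1a2, Col3a1, Col5a1 and Col27a1 (5 of 8 fibrillar), Col6a1, Col6a2 and Col6a3 (3 of 4 of type VI), and Col14a1, Col16a1, Col18a1, Col20a1 and Col26a1. None of the 6 type IV chains was lowest there. Col3a1 read 2.80 on it and 3.75 or above on the other 10 arrays, and Col14a1, a FACIT chain of fibril surfaces, read -0.85 against -0.30 or above. With normexp and quantile normalization the count was 10 of 33 (30.3%, all features 14.4%). The low readings were not particular to the collagens. Of 111 tested partner genes described below, 27.9% were lowest there (30.6% with normexp and quantile normalization). By list the share was 40% for turnover, 38.5% for processing, 36.4% for basement membrane partners and 33.3% for fibril-associated matrix. It was 21.7% for TGF-beta genes, 20% for folding and 9.09% for receptors.

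For the 14 fibroblast markers without collagens, the median deviation from the mean over 11 arrays was 0.08 on delta replicate 3, where the fibrillar chains had -0.48 and the type VI chains -0.57. Of the 14, 4 were lowest there (28.6%, against 13.6% of all features), and the mean level of the list was 3.43 on it, within 3.27 to 3.59 on the other 10 arrays. The markers named next were chosen after their values were seen. Dcn, a small proteoglycan of fibrils, read 8.33 on delta replicate 3 and 7.81 to 8.43 on the other 10 arrays, and Pdgfra, a receptor of cardiac fibroblasts, was highest there at 1.51. Lum, which encodes another fibril proteoglycan, was lowest there at 2.83 (3.54 or above on the other 10), as was Dpt at 0.73. The 11 smooth muscle and pericyte markers had a median deviation of -0.25 on that array, their lowest of the 11, and 2 of them were lowest there (5 with normexp and quantile normalization). The mean level of these markers was 2.39 on it, 2.39 to 2.52 in control replicates 2 and 3, 2.43 to 2.75 in I183M, 2.59 to 2.82 in I183P and up to 2.70 in delta. Their part in the collagen readings was not tested. Delta replicates 1 and 2 had fibrillar medians of 0.21 and -0.11, so the delta line spanned the range of the 11 arrays.

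**Figure D4:**
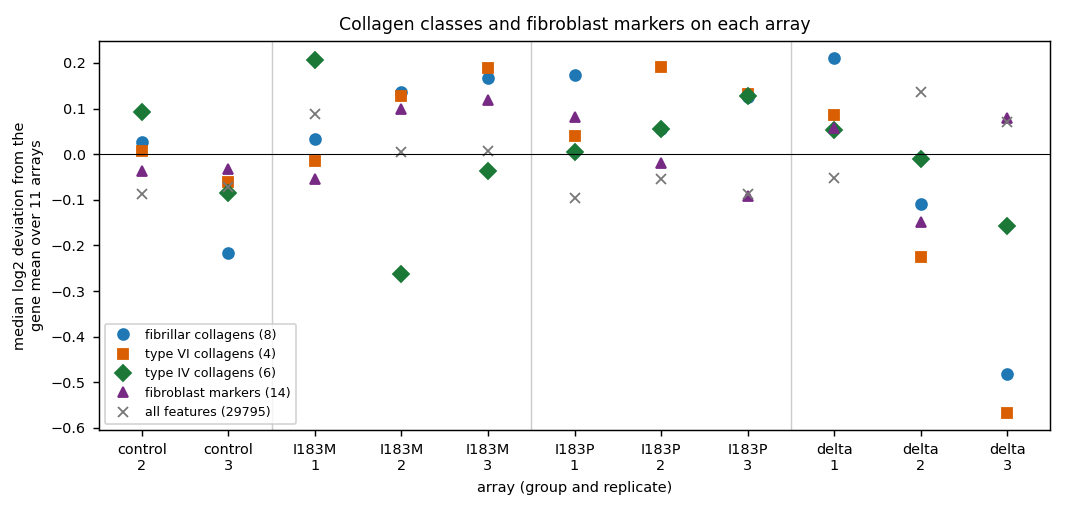
For each of the 11 arrays other than control replicate 1, the median log2 deviation of the genes of a list from their own mean over the 11 arrays: fibrillar, type VI and type IV collagens, 14 fibroblast markers and all 29795 features. On delta replicate 3 the fibrillar and type VI medians are -0.48 and -0.57, and the fibroblast markers are at 0.08.

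Of 116 genes for collagen folding, processing, partners, turnover, receptors and TGF-beta signalling, 111 were tested and 0 passed in any of the 6 comparisons in limma, nor with normexp and quantile normalization. At an unadjusted p under 0.05, 2, 9 and 9 stood in the comparisons of I183M, I183P and delta with control, and 1, 2 and 1 in the direct ones. The first 3 are 1.8%, 8.11% and 8.11% of the list, where 1.46%, 5.18% and 7.35% of all features stood. The fold against control was above 0 for 85, 82 and 82 of the 111 (76.6%, 73.9% and 73.9%), against 65.6%, 59.8% and 60.7% of the 17259 tested genes with a symbol. The counts without control replicate 1 were 66, 63 and 57 (59.5%, 56.8% and 51.4%), against 57.3%, 50.1% and 60.2%. Serpinh1, the collagen chaperone Hsp47, read higher in delta than in control without overlap (4.57 and 3.62, fold 0.95, SE 0.26, adjusted p 0.353), with 0.71 without control replicate 1. Plod1, a lysyl hydroxylase of collagen chains, lay below control without overlap in I183M, I183P and delta, with folds of -0.31, -0.57 and -0.49 (SE 0.18; adjusted p 0.879, 0.563 and 0.547), and of -0.20, -0.46 and -0.38 without control replicate 1. Of all features, 1.37%, 5.23% and 3.1% lay wholly below control in those lines, and 10.5% wholly above it in delta. The share below control in I183M, I183P and delta at once was not counted. The partner genes named here and next were taken by smallest p.

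Tgfb2, a TGF-beta ligand, had folds of 0.58, 0.96 and 1.11 (SE 0.28; limma adjusted p 0.879, 0.563 and 0.309), and its arrays lay above control in all 3 lines. These were 0.41, 0.79 and 0.94 without control replicate 1. Of all features, 2.36%, 7.55% and 10.5% lay wholly above control in I183M, I183P and delta. The share above control in all 3 lines at once was not counted. Ddr1, a receptor kinase that binds collagen, had folds of 0.87 in I183P and 0.83 in delta (SE 0.30; adjusted p 0.563 and 0.547), and without control replicate 1 of 0.50 and 0.46. Fbln1, a matrix glycoprotein, had folds of 0.83, 1.00 and 0.86 (SE 0.35; adjusted p 0.879, 0.563 and 0.632), and 0.42, 0.58 and 0.44 without that array. The 11 laminin, nidogen and proteoglycan partners of the basement membrane had a median fold of -0.17 in delta against I183M and against I183P. Of the 11, 1 and 0 were above 0, where 47.3% and 61.3% of the tested genes with a symbol were, and none passed. The median deviation of these partners from the mean over 11 arrays was 0.04 on delta replicate 1 and -0.17 on delta replicates 2 and 3. It was -0.07, 0.09 and 0.13 in I183M and 0.03, 0.11 and 0.07 in I183P. The 7 epicardial and mesothelial markers had folds above 0 in all 7 in delta against either substitution line (medians 0.80 and 1.78), where 47.3% and 61.3% of the tested genes with a symbol were above 0. With normexp and quantile normalization 7 and 6 of them were above 0, with medians of 0.40 and 0.37. Of the 7, 3 were above background on all 11 arrays. Their mean level ran from -2.62 to -2.61 in control replicates 2 and 3, -3.77 to -2.04 in I183M, -4.06 to -2.54 in I183P and -2.25 to -1.51 in delta, and it was -1.48 on control replicate 1. Their part in the collagen folds was not tested.

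Several collagens had more than 1 probe above background on all 11 arrays. The probes of Col18a1 had delta folds of -0.06 and -0.12 against control, those of Col16a1 -0.15 and -0.02, and those of Col20a1 -0.81 and -0.99. The probes of Col15a1 were all below 0 in I183M and delta against control. In I183P the main Col15a1 probe had 0.14 and the others -0.67 and -0.07. Those of Col14a1 disagreed: the main probe had folds of 0.43, 0.47 and 0.15 for I183M, I183P and delta against control, and a dimmer one -0.24, -1.17 and -0.90. Those of Col4a4, a chain of a kidney-type trimer, differed as well, with -0.02, -0.01 and 0.03 for the main probe and -0.69, -0.36 and -0.68 for the other. The folds of these probes include control replicate 1 and are not given without it. On that array the dimmer Col14a1 probe read 0.69, against -2.09 and -2.36 on control replicates 2 and 3. It read -2.71, -2.41 and -2.16 in I183P and -2.55, -1.44 and -2.48 in delta. The main Col14a1 probe read -1.19, 0.20 and -0.30 in control. The other Col4a4 probe read -1.35, -3.01 and -2.94 there. The differences between probes against control thus depend in part on that array. Which transcripts the probes read is not given in the files.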

How the data were processed

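The set of collagens and the gene lists were chosen with earlier results of these data known, as was control replicate 1 as an array to leave out. Per the file headers, the deposited scanner files were made with Agilent Feature Extraction 11.0.1.1 and hold intensity values per spot, with no normalization between arrays. The authors also deposited a table on a log2 scale, used as an alternative. RNA integrity and other steps stand as in the labels' protocols.

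Outlier and control spots were left out, log2 processed intensities of a probe were averaged, and the 75th percentile of the array was subtracted. Probes were named through a RefSeq table (GRCm38.p6), which differs from the mm9 layout of the arrays, so its coordinates are given for the promoter stretches alone. A probe was tested where well above background on at least 3 of 12 arrays (41591 probes). The brightest tested probe stood for its gene, giving 29795 features. A fold against a group below background on all arrays is a bound, set against the lowest signal well above background.

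limma 3.58.1 in R 4.3.3 was fitted over all 12 arrays and 4 groups, with p-values adjusted by Benjamini-Hochberg, and tested on simulated data. Named collagens are Col1a1, Col1a2, Col3a1, Col4a1, Col4a2, Col6a1 and, per comparison, up to 3 with the largest fold in each direction among those without overlap and the 2 with the smallest p. Of other lists, up to 3 members per comparison by smallest p were named, apart from fibroblast markers described on 1 array. Same-numbered control and I183M arrays deviated together (correlations 0.79, 0.56 and 0.50 over features), which other pairs of lines did not do in all 3 numbers. Arrays of different numbers also correlated, up to 0.87 for control replicate 1 and delta replicate 2. Alternatives covered normalization, filter, probes, slide, the replicate number and each array left out. The number of arrays limits the precision.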

Additional observations from a re-analysis of the deposited data

How the results depend on the processing

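Over 24 planned and 2 added alternatives, the count of collagen genes past the threshold was 0 in 147 of 148 values, and 0 to 1 over the fits without 1 array for delta versus control. Of 39 folds of named collagens, 25 kept their sign throughout. The replicate block gave 0 collagens in every comparison and 0, 1, 7, 0, 0 and 0 features in I183M, I183P and delta versus control, I183P versus I183M, delta versus I183M and delta versus I183P. Same-numbered arrays correlated throughout for control and I183M alone, and differently numbered arrays correlated as strongly. Crossed numbers were not tried.

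The counts over all features moved as follows. In I183M versus control (0) they were 2 with normexp and quantile normalization, 2 with the authors' values, 1 with the filter on all arrays of a group, 2 with normexp and slide, and 10 with normexp without control replicate 1. In I183P versus control (1) they were 3, 2, 7, 6 and 11 in the same order, 4 with the filter without control replicate 1, 0 with the array median, the slide block, slide 1 only or the 2 groups alone, and 0 to 5 without 1 array. In delta versus control (22) they were 13 with no filter, 10 with the mean of probes, 0 with the array median, the slide block, the 2 groups alone or normexp and slide, 303 with normexp without control replicate 1, and 0 to 51 without 1 array (51 without control replicate 1). I183P versus I183M had 1 with normexp and slide. Delta versus I183M had 5 with normexp or the authors' values, 3 and 11 with the filters, 97 with normexp without control replicate 1, and 0 to 13 without 1 array. Delta versus I183P had 5, 3 (the authors' values) and 10, and 0 to 7 without 1 array.

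Signs of folds that turned, none of which passed under any setting, were as follows, and the cause was not tested. With normexp and quantile normalization the folds against control were -0.26 (Col4a1) and -0.17 (Col4a2) in I183M, -0.0515 and -0.0187 in I183P, and -0.10 (Col1a1), -0.16 (Col1a2), -0.34 (Col3a1), -0.30 (Col4a1), -0.27 (Col4a2) and -0.21 (Col6a1) in delta. The authors' values gave -0.26, -0.17, -0.0647, -0.0320, -0.10, -0.15, -0.35, -0.31, -0.28 and -0.21 in that order, and 0.00495 for Col27a1 in delta. With normexp and slide they were -0.26 and -0.17 in I183M, -0.10 (Col4a1) in I183P, -0.25, -0.17, -0.30, -0.44, -0.11 and -0.43 in delta, and 0.15 for Col27a1. With normexp without control replicate 1 they were -0.22 and -0.10, -0.0154 (Col4a1), and -0.0701 (Col1a2), -0.24, -0.27, -0.20 and -0.19. In delta versus I183M, Col22a1 was -0.69 with the slide block and -0.52 with normexp and slide, Col27a1 0.13 with the latter, and Col4a6 -0.00239 with the mean of probes. Without 1 array the folds ran from -0.27 to 0.38 (Col4a1) and -0.13 to 0.43 (Col4a2) in I183M, from -0.0629 to 0.59 (Col4a1) in I183P, and in delta from -0.0198 to 0.58 (Col1a1), -0.0183 to 0.58 (Col1a2), -0.22 to 0.57 (Col3a1), -0.29 to 0.37 (Col4a1), -0.22 to 0.34 (Col4a2) and -0.27 to 0.41 (Col6a1).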
